A study of Mus musculus with 8 samples.

Results

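The genes described here are 10 targets of the transcription factor p53 that act in apoptosis, taken by symbol from 24612 genes measured by RNA sequencing in mouse skin. They are Pmaip1, Bbc3, Bax, Fas, Tnfrsf10b, Eda2r, Aen, Trp53inp1, Apaf1 and Perp, and all 10 were found and passed the filter on low values. Skin homogenates came from male C57 BL/6 J mice that were treated from 6 weeks of age and sampled at 21 days, in 3 groups. Celastrol, a plant triterpenoid, was given each day by intraperitoneal injection (1 or 2 mg/kg) in 3 libraries. Bleomycin, a DNA-damaging agent used to model the skin fibrosis of systemic sclerosis, was injected under the skin (0.1 units) in 3 libraries. Phosphate-buffered saline (PBS, 0.1 mL) was injected under the skin in 2 libraries. The labels do not give the dose of a single celastrol library, whether those mice also received bleomycin, or the skin site that was taken. They also do not say that each library is a separate mouse, so p-values measure only the spread between these libraries.

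p53 is stabilized after DNA damage and switches on genes that stop the cell cycle, repair DNA or kill the cell. Its death genes act at several points: Pmaip1 (NOXA) and Bbc3 (PUMA) are BH3-only proteins that release the pore-forming protein Bax, Fas, Tnfrsf10b and Eda2r are receptors of the tumour necrosis factor (TNF) receptor family, and Apaf1 assembles the apoptosome that activates caspase-9. Aen is a nuclease, Trp53inp1 modifies p53 activity and autophagy, and Perp is a membrane protein that skin also needs for its desmosomes, the junctions that hold keratinocytes together. In unstressed epidermis Perp is driven by the p53 relative p63.

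Values are the deposited normalized values, on a linear scale and scaled for library size. Their sums were between 22900000 and 26400000 per library, and the depth estimated from the value of 1 read was between 14900000 and 37100000 reads. The keratin genes Krt5 and Krt14 were high in every library, at least 20750 and 10857. Celastrol 2 stood apart on principal component 1, which held 32.7% of the variance, at -237.5 against 3.6 to 57.3 in the other libraries. Sums of markers of basal and differentiated epidermis, macrophages, B cells, adipocytes and endothelium overlapped between the groups. Single markers within these lists did not all overlap. Krt14, Flg, Cd68 and Pecam1 were higher, and Tek lower, in every celastrol and bleomycin library than in either PBS library. Flg passed in limma in both comparisons with PBS, and Tek in celastrol over PBS skin. The PBS libraries themselves differed in differentiated epidermis, at 294924 in PBS 2 and 97579 in PBS 3. Other marker sums moved with the groups. The 7 fibroblast markers summed to 27817 to 72996 in celastrol and 29739 to 102189 in bleomycin libraries, against 345821 to 755124 in PBS libraries. Most of the PBS sums came from the collagen genes Col1a1, Col1a2 and Col3a1. Each of the 7 markers, collagens included, was lower in every celastrol and bleomycin library than in either PBS library. The 7 markers of wounded epidermis summed to 50763 to 97412 in celastrol and 18058 to 154783 in bleomycin libraries, against 2183 to 9295 in PBS libraries. The 8 skeletal muscle markers summed to 182126 to 236885 in celastrol and 97108 to 146639 in bleomycin libraries, against 77068 to 90185 in PBS libraries. In bleomycin skin Myh1, Myh4 and Actn3 were singly higher in every library than in either PBS library. Acta1, Myh2, Ckm, Tnnt3 and Mylpf overlapped PBS libraries there. In celastrol skin Acta1 alone of these markers overlapped PBS libraries. Of 6 neutrophil markers, 5 were measured and summed to 2000 to 2986 in celastrol and 1386 to 6048 in bleomycin libraries, against 928 to 1315 in PBS libraries. S100a8 and S100a9 stand in both this list and that of wounded epidermis. Mast cell and melanocyte sums were higher in every celastrol library than in either PBS library. Of 8 hair follicle markers, 3 were measured, and their sum was lower in every celastrol library than in either PBS library. That sum was mostly Lhx2 in PBS libraries, at 280 and 185, against 44.3 to 75.9 in celastrol libraries. The other measured markers, Krt25 and Krt27, went the other way, at 0 in both PBS libraries and above 0 in some celastrol libraries. No measured marker of these lists was at 0 in every library, and the part of these markers in the results below was not tested. In whole tissue, fewer cells of a type and less RNA per cell cannot be told apart.

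Promoter sequence from RefSeq (build GRCm38.p6, 250 bases before to 50 after a start site) was matched by symbol for 6 of the 10 genes, in 9 windows. Pmaip1, Trp53inp1, Tnfrsf10b and Perp had no window and were not searched. Each window was searched for 2 copies of the p53 decamer, a motif of 10 bases, up to 3 bases apart, with up to 3 mismatches in all outside the fixed C and G of each copy. The decamer is its own reverse complement, so a single search covers both strands. Bax, Aen and Bbc3 held such a pair, in 5 of their windows, and 5.759% of all 32851 promoter windows held one. With at most 2 mismatches it was the Bax window alone among the 9, against 1.352% of all windows. One window of each gene is shown because, among the 6 genes searched, these have the promoter letters that come closest to a p53 site. Capitals mark the 2 decamers of the pair.
Bax, chr7:45466849-45467148, minus strand: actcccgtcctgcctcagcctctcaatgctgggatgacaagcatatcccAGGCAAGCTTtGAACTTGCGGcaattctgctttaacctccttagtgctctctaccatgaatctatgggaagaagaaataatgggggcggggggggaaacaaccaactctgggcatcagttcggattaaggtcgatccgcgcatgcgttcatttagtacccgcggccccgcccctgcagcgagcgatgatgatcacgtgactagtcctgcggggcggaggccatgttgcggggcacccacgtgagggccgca
Aen, chr7:78895808-78896107, plus strand: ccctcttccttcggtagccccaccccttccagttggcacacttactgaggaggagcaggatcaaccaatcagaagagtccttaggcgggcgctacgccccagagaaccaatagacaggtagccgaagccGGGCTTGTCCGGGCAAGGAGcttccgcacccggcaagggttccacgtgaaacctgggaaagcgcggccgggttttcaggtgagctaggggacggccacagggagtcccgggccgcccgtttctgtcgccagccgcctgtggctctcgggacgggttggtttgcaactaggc
Bbc3, chr7:16309333-16309632, plus strand: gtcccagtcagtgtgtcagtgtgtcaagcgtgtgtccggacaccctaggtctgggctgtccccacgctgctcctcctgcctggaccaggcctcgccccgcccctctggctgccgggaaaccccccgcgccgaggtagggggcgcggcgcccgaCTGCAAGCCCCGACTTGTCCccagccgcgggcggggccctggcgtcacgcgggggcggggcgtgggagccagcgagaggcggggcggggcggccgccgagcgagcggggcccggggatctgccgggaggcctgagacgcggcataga
The pairs begin at position -201 in Bax, -121 in Aen and -97 in Bbc3, counted from the start site as 0. These matches describe letters only. Apaf1, Fas and Eda2r held no such pair in this window. An exact decamer stood in 3 windows of 2 genes, Bax and Aen, against 8.356% of all windows. Both Aen windows overlap and hold the same pair, so it counts in 2 windows here and among the 5 windows with a pair.

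Per kilobase of exon, the level of Perp was far above the rest in every group. It averaged 19717 in celastrol, 17372 in bleomycin and 15090 in PBS libraries. Trp53inp1 came next with 1511 in celastrol, 1460 in bleomycin and 648 in PBS libraries, also in every group. The order below these depended on the group. Pmaip1 was next in treated skin, with a level per kilobase of 350 in celastrol and 394 in bleomycin libraries, but averaged 88.8 in PBS libraries, where Apaf1 (155), Fas (122) and Tnfrsf10b (89.9) were higher. Eda2r averaged 202 in celastrol, 217 in bleomycin and 68.7 in PBS libraries, and Aen 121 in celastrol, 156 in bleomycin and 57.9 in PBS libraries. Bax and then Bbc3 were lowest in every group, with Bax at 69.9 in celastrol, 88.6 in bleomycin and 44.1 in PBS libraries and Bbc3 at 4.77 in celastrol, 9.55 in bleomycin and 3.93 in PBS libraries. The library ranges of Apaf1, Eda2r and Fas overlapped over the 8 libraries. In mm10 coordinates Pmaip1 lies at chr18:66458533-66465565 on the plus strand, Eda2r at chrX:97333840-97377216 on the minus strand, Trp53inp1 at chr4:11156431-11174379 on the plus strand and Aen at chr7:78895854-78911209 on the plus strand. Bbc3 lies at chr7:16308393-16318205 and Bax at chr7:45461697-45466898 on the plus and minus strands of the same chromosome. Fas (chr19:34290666-34327772), Tnfrsf10b (chr14:69767472-69784411) and Perp (chr10:18845020-18857073) are on plus strands, and Apaf1 (chr10:90989311-91082770) is on a minus strand. No exon of another gene in the table lay on an exon of a member in the GENCODE M21 annotation.

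Relative to PBS skin, 4 of the 10 genes rose in bleomycin skin and the same 4 rose in celastrol skin: Pmaip1, Eda2r, Trp53inp1 and Aen (limma, adjusted p under 0.05). None fell. Among all 23185 genes tested, 0.453% were called higher and 0.224% lower in bleomycin skin (0.677% in either direction), and 0.824% higher and 0.543% lower in celastrol skin (1.37% in either direction). The bleomycin and celastrol comparisons share their PBS libraries. Every library lay above both PBS libraries for 7 of 10 members in bleomycin skin, where 12.0% of all genes did so, and for 7 of 10 in celastrol skin, where 13.2% did so. No member lay below both PBS libraries in every treated library, where 11.6% of all genes did so in bleomycin and 13.7% in celastrol skin. All 10 changes were above 0 in both comparisons, as were 49.9% of all genes in bleomycin and 45.6% in celastrol skin. The median log2 change of the 10 was 1.07 in bleomycin skin, beside -0.00 over all genes, and 0.62 in celastrol skin, beside -0.07 over all genes. The genes were chosen with earlier results of these data known, so these counts describe the list. Calls over all genes also changed with 1 treated library left out. For bleomycin over PBS skin, 157 became 125, 158 and 103 without Celastrol 2, 3 and 5. Without Bleomycin 2, 3 and 4 they became 229, 33 and 16. For celastrol over PBS skin, 317 became 143, 308 and 39 without Celastrol 2, 3 and 5. Without Bleomycin 2, 3 and 4 these became 418, 272 and 158. Without Celastrol 2, the library that stood apart, 3 members were called in bleomycin and 2 in celastrol skin over PBS. The number called in bleomycin skin was 2 without Celastrol 5 and 0 without Bleomycin 3, Bleomycin 4, PBS 2 or PBS 3. In celastrol skin it was 2 without Bleomycin 3 or Bleomycin 4, 1 without Celastrol 3 and 0 without Celastrol 5, PBS 2 or PBS 3.

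**Figure D1:**
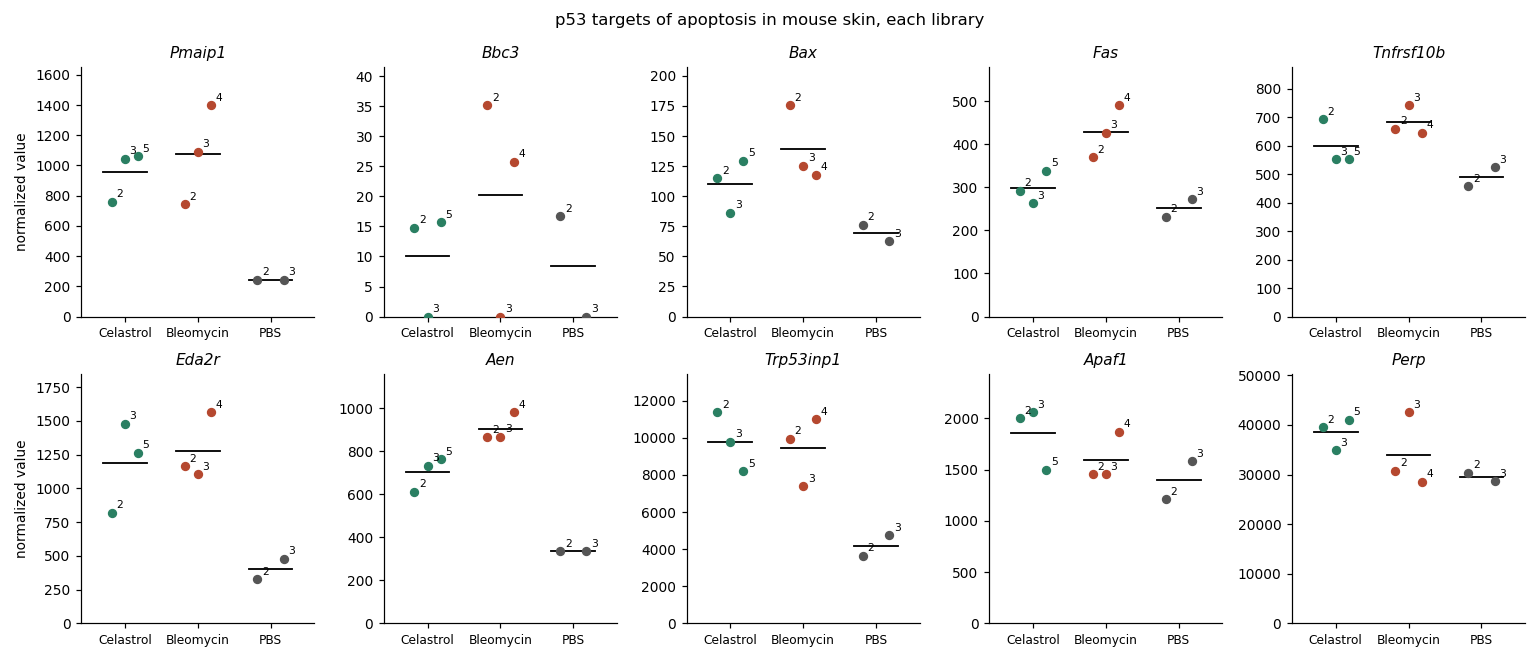
Deposited normalized value (linear axis from 0) of each of the 10 genes in every library, with celastrol, bleomycin and PBS groups from left to right. Points are libraries with their number, and lines are group means. For Pmaip1, Eda2r, Trp53inp1 and Aen all celastrol and bleomycin points lie above both PBS points, while Bbc3 is at 0 in the library numbered 3 of each group.

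Pmaip1, the BH3-only protein that neutralizes MCL-1, had the largest change of the 10 genes in both comparisons with PBS. Its values were 760, 1046 and 1062 in Celastrol 2, 3 and 5, then 744, 1091 and 1397 in Bleomycin 2, 3 and 4, and 243 and 242 in PBS 2 and 3. The lowest treated library was 3.07 times the PBS mean, and the PBS libraries were nearly equal. In bleomycin skin the mean was 1077 ± 327 (SD, n = 3), against 243 ± 1.25 (SD, n = 2) in PBS skin, a log2 change of 2.10 ± 0.29 (SE; limma adjusted p = 0.0138). In celastrol skin the mean was 956 ± 170 (SD, n = 3), a log2 change over PBS of 1.96 ± 0.29 (SE; limma adjusted p = 0.0125). With 1 library left out, the bleomycin change kept a size of 1.89 to 2.34 but was not called without Bleomycin 3, Bleomycin 4, PBS 2 or PBS 3 (limma adjusted p between 0.0555 and 0.112). The celastrol change kept a size of 1.87 to 2.12 and was not called without Celastrol 5, PBS 2 or PBS 3 (limma adjusted p between 0.0628 and 0.086).

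Bbc3, the BH3-only protein that binds all antiapoptotic BCL-2 relatives, had the lowest values of the 10 genes. It stood at 14.8, 0 and 15.7 in Celastrol 2, 3 and 5, at 35.1, 0 and 25.7 in Bleomycin 2, 3 and 4, and at 16.7 and 0 in PBS 2 and 3. The values above 0 correspond to between 9 and 51 reads. The 3 libraries at 0 are those numbered 3, where 3 reads would be worth 5.06 in Celastrol 3, 3.92 in Bleomycin 3 and 3.31 in PBS 3. None of 15 widely expressed genes was at 0 in any library, but all of them stood far above Bbc3, so they do not bear on so low a gene. Of all genes, 3001 were at 0 in Celastrol 3, 2643 in Bleomycin 3 and 1783 in PBS 3. In Celastrol 2 it was 4165, and in the remaining libraries 593 to 873. The libraries at 0 had estimated depths of 14900000 (Celastrol 3), 18500000 (Bleomycin 3) and 21700000 reads (PBS 3). Celastrol 2, with 15100000, holds 9 reads, and the remaining libraries, with 31600000 or more, also hold reads. The part of depth in the zeros was not tested. Whether a listed 0 is an absence of reads or a missed estimate of the counter cannot be told from the deposited values. The groups overlapped, and the 95% interval of the log2 change in bleomycin over PBS skin ran from -3.31 to 5.77.

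Bax, which forms the pore in the mitochondrial outer membrane, was higher in every treated library than in either PBS library but did not pass. It stood at 115, 86.0 and 129 in Celastrol 2, 3 and 5, at 175, 125 and 118 in Bleomycin 2, 3 and 4, and at 76.4 and 62.7 in PBS 2 and 3. The log2 change of Bax was 0.98 ± 0.48 (SE; limma adjusted p = 0.822) in bleomycin and 0.64 ± 0.48 (SE; limma adjusted p = 0.656) in celastrol skin over PBS. These values rest on 51 to 255 reads per library, and 192 exon bases of Bax are shared with Gm45808, a gene on the same strand that has no row in the table.

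Of the 18 other BCL-2 family genes listed, 16 were tested, and 1 rose and 0 fell in either comparison with PBS. The gene that rose, Bcl2a1d, encodes an antiapoptotic A1 protein. It stood at 41.0, 119 and 96.7 in celastrol, 71.7, 148 and 104 in bleomycin, and 2.53 and 7.59 in PBS libraries. The log2 change was 4.25 ± 0.80 (SE; limma adjusted p = 0.0445) in bleomycin and 3.84 ± 0.80 (SE; limma adjusted p = 0.0458) in celastrol skin over PBS. With a pseudocount of 10 the celastrol change of Bcl2a1d was 2.58 and not called (limma adjusted p = 0.0545), and the call was also lost with no filter and with the same library sum (limma adjusted p = 0.0517 and 0.0542). The neutrophil marker sums given above were also higher in every treated library than in either PBS library. In celastrol skin this held singly for S100a8 and S100a9, which are also listed for wounded epidermis, while Csf3r, Cxcr2 and Retnlg overlapped PBS libraries. In bleomycin skin Cxcr2 alone of these markers overlapped PBS libraries. The part of these markers in the Bcl2a1d values was not tested. Bcl2a1d shares reads with the near-identical Bcl2a1a and Bcl2a1b, which did not pass, so the value of a single copy is uncertain. Both of its calls were lost without any one of Celastrol 3, Celastrol 5, Bleomycin 2, Bleomycin 3, Bleomycin 4, PBS 2 or PBS 3 (limma adjusted p between 0.052 and 0.238). Mcl1, the antiapoptotic partner of the Pmaip1 protein, did not pass. It stood at 8341 to 10762 in celastrol and 8061 to 10163 in bleomycin libraries, against 7288 and 7303 in PBS libraries, with log2 changes of 0.37 (limma adjusted p = 0.425) in celastrol and 0.34 (limma adjusted p = 0.848) in bleomycin skin over PBS. Bcl2l1 (BCL-XL) had log2 changes of 0.72 in celastrol and 0.61 in bleomycin skin over PBS and did not pass (limma adjusted p = 0.484 and 0.99). Bcl2 stood at 835 to 1118 in celastrol, 1116 to 1344 in bleomycin and 1104 to 1299 in PBS libraries, and these ranges overlapped.

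Among the receptors, Eda2r rose in both treated groups. It encodes a TNF receptor family member that binds the ectodysplasin isoform EDA-A2 and has no death domain. Its values were 821, 1481 and 1264 in Celastrol 2, 3 and 5, then 1165, 1105 and 1564 in Bleomycin 2, 3 and 4, and 328 and 481 in PBS 2 and 3. The lowest treated library, Celastrol 2, was 2.03 times the PBS mean. In bleomycin skin the mean was 1278 ± 249 (SD, n = 3), against 405 ± 108 (SD, n = 2) in PBS skin, a log2 change of 1.67 ± 0.30 (SE; limma adjusted p = 0.0348). In celastrol skin it was 1189 ± 337 (SD, n = 3), a log2 change over PBS of 1.54 ± 0.30 (SE; limma adjusted p = 0.0363). The bleomycin call was lost without Celastrol 5, Bleomycin 3, Bleomycin 4, PBS 2 or PBS 3 (limma adjusted p between 0.0788 and 0.237, log2 change 1.39 to 1.94 over all fits with 1 library left out). The celastrol call was lost without Celastrol 3, Celastrol 5, Bleomycin 3, Bleomycin 4, PBS 2 or PBS 3 (limma adjusted p between 0.0528 and 0.224, log2 change 1.26 to 1.81 over the same fits). None of the other 5 genes of the ectodysplasin list passed in limma in any comparison, with 1 at an unadjusted p under 0.05 in celastrol over PBS skin, 1 in celastrol over bleomycin skin and 0 in bleomycin over PBS skin. Its ligand gene Eda stood at 263, 47.2 and 102 in celastrol, 141, 36.6 and 93.5 in bleomycin, and 137 and 172 in PBS libraries, which overlapped.

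Fas, the death receptor that is bound by Fas ligand, stood higher in all bleomycin libraries than in any other library. Its values were 292, 263 and 339 in Celastrol 2, 3 and 5, then 369, 427 and 490 in Bleomycin 2, 3 and 4, and 231 and 273 in PBS 2 and 3. Celastrol and PBS libraries overlapped. The log2 change in bleomycin over PBS skin was 0.76 ± 0.29 (SE) and did not pass (limma adjusted p = 0.548), and that in celastrol over PBS skin was 0.24 ± 0.29 (SE; limma adjusted p = 0.804).

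Tnfrsf10b, the death receptor of mice for the TNF-related ligand TRAIL, did not pass. It stood at 693, 551 and 551 in Celastrol 2, 3 and 5, at 659, 741 and 645 in Bleomycin 2, 3 and 4, and at 458 and 523 in PBS 2 and 3. All treated libraries lay above both PBS libraries, by a narrow margin for Celastrol 3 and Celastrol 5. The change of Tnfrsf10b on the log2 scale was 0.48 ± 0.23 (SE; limma adjusted p = 0.808) in bleomycin and 0.28 ± 0.23 (SE; limma adjusted p = 0.689) in celastrol skin over PBS.

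Of the 16 genes listed for death receptor signalling, 15 were tested and 0 passed in limma in any comparison, with 1 at an unadjusted p under 0.05 in each. Casp8, the caspase that death receptors activate, stood at 1333, 1307 and 1612 in celastrol and 936, 1626 and 1568 in bleomycin libraries, against 851 and 858 in PBS libraries. Its log2 change was 0.72 (limma adjusted p = 0.267) in celastrol and 0.64 (limma adjusted p = 0.588) in bleomycin skin over PBS. The ligand gene Fasl was low, at 32.8, 0 and 20.6 in celastrol, 5.51, 53.6 and 19.8 in bleomycin, and 0 and 8.83 in PBS libraries. Tnfsf10, which encodes TRAIL, stood at 281 to 566 in celastrol, 478 to 651 in bleomycin and 373 to 598 in PBS libraries. Both ligand genes overlapped between groups.

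Trp53inp1, which had a high level in PBS skin, rose in both treated groups. Its values were 11373, 9783 and 8203 in Celastrol 2, 3 and 5, then 9957, 7401 and 11002 in Bleomycin 2, 3 and 4, and 3645 and 4743 in PBS 2 and 3. Every treated library was at least 1.76 times the PBS mean. In bleomycin skin the mean was 9454 ± 1853 (SD, n = 3), against 4194 ± 777 (SD, n = 2) in PBS skin, a log2 change of 1.17 ± 0.22 (SE; limma adjusted p = 0.0445). In celastrol skin it was 9786 ± 1585 (SD, n = 3), a log2 change over PBS of 1.22 ± 0.22 (SE; limma adjusted p = 0.0254). The bleomycin call was lost when any 1 of the 8 libraries was left out (limma adjusted p between 0.0544 and 0.283, log2 change 0.97 to 1.36), and also when libraries were rescaled to the same sum (limma adjusted p = 0.0547) or upper quartile (limma adjusted p = 0.0533). The celastrol call was lost without Celastrol 2, Celastrol 3, Celastrol 5, PBS 2 or PBS 3 (limma adjusted p between 0.0588 and 0.17, log2 change 1.03 to 1.41 over all fits with 1 library left out).

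Aen, an exonuclease that enhances p53-dependent apoptosis, rose in both treated groups. It stood at 611, 733 and 762 in Celastrol 2, 3 and 5, at 865, 866 and 980 in Bleomycin 2, 3 and 4, and at 336 in both PBS libraries. The 3 groups did not overlap: bleomycin libraries were highest, celastrol libraries between and PBS libraries lowest. In bleomycin skin the mean was 904 ± 66.0 (SD, n = 3), against 336 ± 0.0071 (SD, n = 2) in PBS skin, a log2 change of 1.42 ± 0.22 (SE; limma adjusted p = 0.0209). In celastrol skin it was 702 ± 80.5 (SD, n = 3), a log2 change over PBS of 1.05 ± 0.22 (SE; limma adjusted p = 0.0459). The bleomycin call was lost without Bleomycin 3, Bleomycin 4, PBS 2 or PBS 3 (limma adjusted p between 0.0746 and 0.158, log2 change 1.36 to 1.45 over all fits with 1 library left out). The celastrol call was lost when any 1 of the 8 libraries was left out (limma adjusted p between 0.0528 and 0.249, log2 change 0.99 to 1.15), with the same library sum (limma adjusted p = 0.0723) and with the same upper quartile (limma adjusted p = 0.0524).

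Apaf1 did not pass in any comparison. It stood at 2002, 2058 and 1500 in Celastrol 2, 3 and 5, at 1456, 1455 and 1867 in Bleomycin 2, 3 and 4, and at 1212 and 1579 in PBS 2 and 3, so that all groups overlapped. Its log2 change was 0.41 ± 0.22 (SE; limma adjusted p = 0.515) in celastrol and 0.19 ± 0.22 (SE; limma adjusted p = 1) in bleomycin skin over PBS. In the list of 17 genes of the apoptosome, caspases and their inhibitors, 0 passed in limma in any comparison, with 1 at an unadjusted p under 0.05 in bleomycin over PBS skin and 0 in the other comparisons.

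Perp was abundant in all libraries and did not pass. Its values were 39547, 34910 and 41007 in Celastrol 2, 3 and 5, then 30709, 42521 and 28498 in Bleomycin 2, 3 and 4, and 30316 and 28595 in PBS 2 and 3. Celastrol libraries lay above both PBS libraries, and bleomycin libraries overlapped them, with Bleomycin 3 alone well above. Its log2 change was 0.38 ± 0.20 (SE; limma adjusted p = 0.502) in celastrol and 0.18 ± 0.20 (SE; limma adjusted p = 1) in bleomycin skin over PBS. The 13 genes of desmosomes and epithelial adhesion summed to 342001 to 399287 in celastrol and 290464 to 403332 in bleomycin libraries, against 306908 to 319809 in PBS libraries, and 0 of the 13 passed in limma in any comparison, with 2 at an unadjusted p under 0.05 in celastrol over PBS skin and 0 in the other comparisons. Dsg3, a cadherin of desmosomes, had log2 changes of 0.56 in celastrol and 0.53 in bleomycin skin over PBS (limma adjusted p = 0.402 and 0.77). Of the 13, only 6 had a change above 0 in each comparison with PBS. The median log2 change of the 13 was -0.01 in bleomycin and -0.02 in celastrol skin over PBS. Pkp2 was lower in every treated library than in either PBS library. Trp63, which encodes p63, stood at 8252 to 9198 in celastrol, 7371 to 9999 in bleomycin and 8468 to 10254 in PBS libraries.

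**Figure D2:**
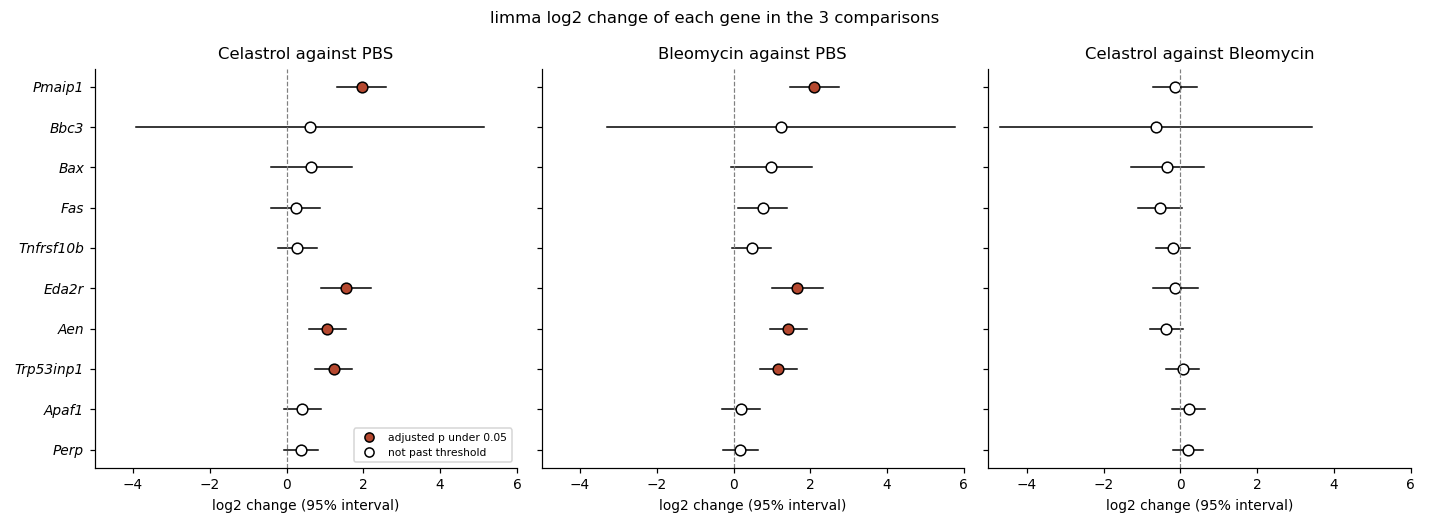
Log2 change with its 95% interval from limma for each of the 10 genes in celastrol against PBS, bleomycin against PBS and celastrol against bleomycin. Filled points passed an adjusted p of 0.05. Pmaip1, Eda2r, Aen and Trp53inp1 are filled in both comparisons with PBS, no point is filled for celastrol against bleomycin, and the intervals of Bbc3 are the widest.

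The transcript of p53 itself did not pass. Trp53 stood at 689, 571 and 504 in Celastrol 2, 3 and 5, at 583, 510 and 599 in Bleomycin 2, 3 and 4, and at 586 and 479 in PBS 2 and 3, so that the groups overlapped. Its log2 change was 0.14 (limma adjusted p = 0.871) in celastrol and 0.09 (limma adjusted p = 1) in bleomycin skin over PBS. Of the 20 genes listed as p53, its regulators and its targets of arrest and repair, 3 rose in bleomycin skin and 2 in celastrol skin over PBS, and 0 fell in either comparison. Their median log2 change was 0.44 in bleomycin and 0.24 in celastrol skin.

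Mdm2, the ubiquitin ligase that degrades p53 and is itself a p53 target, rose in both groups. It stood at 2617, 3042 and 2968 in celastrol and 2943, 3091 and 3733 in bleomycin libraries, against 1544 and 1574 in PBS libraries. The log2 change was 0.88 ± 0.17 (SE; limma adjusted p = 0.0371) in celastrol and 1.05 ± 0.17 (SE; limma adjusted p = 0.0274) in bleomycin skin over PBS. Ccng1 (cyclin G1), a p53 target, rose as well. It stood at 12903, 14106 and 18278 in celastrol and 11323, 10982 and 12983 in bleomycin libraries, against 5443 and 5849 in PBS libraries, with log2 changes of 1.40 ± 0.18 (SE; limma adjusted p = 0.00742) in celastrol and 1.06 ± 0.18 (SE; limma adjusted p = 0.0317) in bleomycin skin over PBS. Plk2, a stress kinase, stood at 1738, 1910 and 1717 in celastrol and 1912, 2472 and 2041 in bleomycin libraries, against 1002 and 1044 in PBS libraries. It rose in bleomycin skin by 1.06 ± 0.18 (SE; limma adjusted p = 0.031) and did not pass in celastrol skin, at 0.80 ± 0.18 (SE; limma adjusted p = 0.0642). The celastrol call of Ccng1 was lost without PBS 3 (limma adjusted p = 0.0555). Its bleomycin call was lost without Bleomycin 3, Bleomycin 4, PBS 2 or PBS 3 (limma adjusted p between 0.0813 and 0.192). Those of Mdm2 and Plk2 in bleomycin skin were lost without the same 4 libraries or Celastrol 5, and that of Plk2 also without Celastrol 2 (limma adjusted p between 0.0516 and 0.19). The celastrol call of Mdm2 was kept in the fit without Bleomycin 2 and lost in the other 7 with 1 library left out (limma adjusted p between 0.0553 and 0.21). It was also lost with the same library sum (limma adjusted p = 0.0617), the same upper quartile (limma adjusted p = 0.0501) and in the fit of 2 groups (limma adjusted p = 0.0651). Cdkn1a, the arrest gene p21, stood at 1866, 1184 and 1903 in celastrol and 2524, 1258 and 1500 in bleomycin libraries, against 1214 and 542 in PBS libraries, where celastrol and PBS libraries overlapped. It had log2 changes of 0.99 in celastrol and 1.05 in bleomycin skin over PBS and did not pass (limma adjusted p = 0.321 and 0.499). The translesion polymerase gene Polk stood at 0.98 in celastrol and 0.96 in bleomycin skin (log2 change over PBS) and did not pass either (limma adjusted p = 0.0973 and 0.147). In a further list of 18 genes linked to p53 and cell death, 0 passed in limma in any comparison, with 2 at an unadjusted p under 0.05 in each comparison with PBS and 0 in celastrol over bleomycin skin, and the median log2 change was -0.08 in bleomycin and -0.06 in celastrol skin over PBS.

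**Figure D3:**
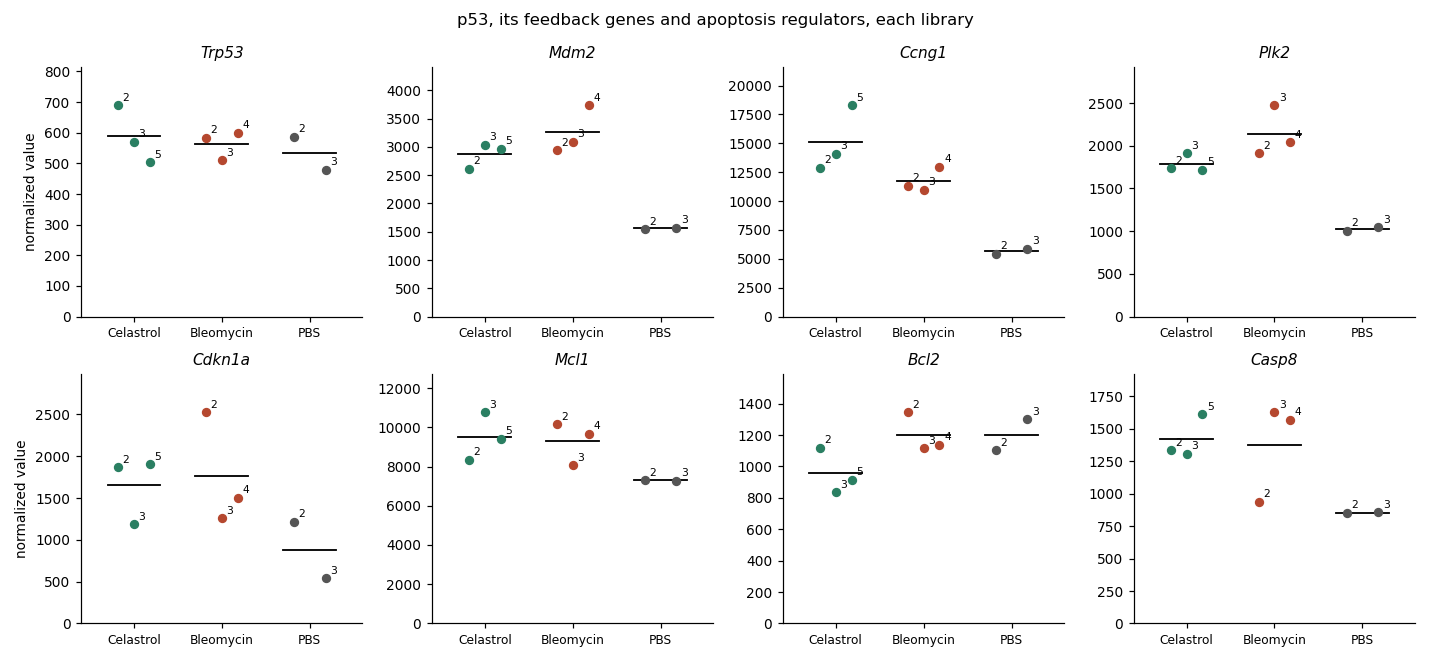
Deposited normalized value (linear axis from 0) of p53 (Trp53), its targets Mdm2, Ccng1, Plk2 and Cdkn1a, the BCL-2 family genes Mcl1 and Bcl2, and the caspase gene Casp8, with celastrol, bleomycin and PBS groups from left to right. Points are libraries with their number and lines are group means. Mdm2, Ccng1 and Plk2 lie above both PBS points in every treated library, while the Trp53 points of the 3 groups overlap.

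Celastrol skin was set against bleomycin skin to ask whether the p53 death genes differed between the treatments. None of the 10 passed, and none of all 23185 genes did (0.0% called in limma, with 898 genes at an unadjusted p under 0.05, none of them a member). The median log2 change of the 10 genes was -0.17, beside -0.04 over all genes, with 3 changes above 0 and 7 below, where 46.3% of all genes were above 0. For the 4 genes that rose over PBS, the log2 change of celastrol over bleomycin was -0.14 for Pmaip1 (95% interval -0.71 to 0.43), -0.13 for Eda2r (-0.71 to 0.46), 0.06 for Trp53inp1 (-0.37 to 0.49) and -0.37 for Aen (-0.80 to 0.06). These intervals leave room for a difference in either direction. Rescaling libraries to the same sum moved the median of all genes to -0.16, and Trp53inp1 then stood at -0.07.

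Aen and Fas were lower in every celastrol library than in any bleomycin library. Such a separation held for 2 of the 10 genes, where 4.59% of all genes did so, and 0 of the 10 lay above in every celastrol library, where 4.13% of all genes did so. Aen averaged 702 ± 80.5 in celastrol and 904 ± 66.0 in bleomycin skin (SD, n = 3 each; limma adjusted p = 0.975). Fas averaged 298 ± 38.2 in celastrol and 429 ± 60.4 in bleomycin skin (SD, n = 3 each), a log2 change of -0.52 ± 0.26 (SE; 95% interval -1.09 to 0.05; limma adjusted p = 0.975). T and NK cells, which use the Fas pathway, had 9 markers that summed to 1002 to 1263 in celastrol and 1330 to 1711 in bleomycin libraries, against 1035 to 1552 in PBS libraries. None of the 9 was at 0 in every library, none passed in limma (1 at an unadjusted p under 0.05 in celastrol over bleomycin skin), and their part in the Fas values was not tested. Bax at -0.34 (95% interval -1.28 to 0.61), Tnfrsf10b at -0.19 (-0.65 to 0.26), Apaf1 at 0.21 (-0.22 to 0.65) and Perp at 0.20 (-0.20 to 0.60) had overlapping groups, and the interval of Bbc3 ran from -4.69 to 3.44.

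The genes varied together to different degrees over the 8 libraries, which include the group differences already given. Pearson's r of the log2 level ranged from -0.20 to 0.96 over the 45 pairs, with a median of 0.56, and 8 pairs were above 0.8. Pmaip1 had an r of 0.96 with Aen, 0.95 with Eda2r and 0.86 with Trp53inp1, and Bbc3, Perp and Apaf1 were least like the rest. The mean of the 10 standardized log2 levels was 0.41, 0.07 and 0.33 in Celastrol 2, 3 and 5, then 0.43, 0.41 and 0.68 in Bleomycin 2, 3 and 4, and -1.23 and -1.09 in PBS 2 and 3. This mean was set against 13381 other genes with a mean value of at least 50, with Gm and Rik symbols left out. The 3 of them with the highest r to the mean of the members were Rnf169, Zbp1 and Ifi44 (0.99 each). Rnf169 encodes a ubiquitin-binding protein of DNA breaks, Zbp1 a nucleic acid sensor, and Ifi44 is an interferon-induced gene. Zbp1 stood at 750, 747 and 913 in celastrol and 850, 822 and 1204 in bleomycin libraries, against 182 and 190 in PBS libraries.

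**Figure D4:**
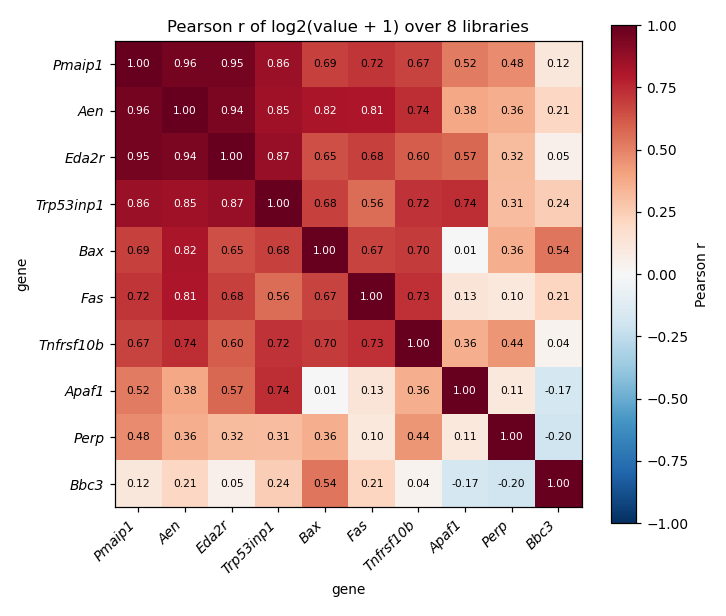
Pearson's r between the 10 genes, from log2(value + 1) over the 8 libraries, with the value in each cell and colour from -1 (blue) to 1 (red). Pmaip1, Aen, Eda2r and Trp53inp1 form the block of highest values, between 0.85 and 0.96, and the 2 values below 0 are those of Bbc3 with Perp and Apaf1.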

How the data were processed

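RNA was measured in 8 skin libraries. The authors used STAR 2.7.3a, Partek 10.0.22, the mm10 build and DESeq2, per the submitters' processing notes. The annotation, the counter and the use of strand are not given in the sources used here. The deposited signal is a linear value per gene and library, and its title names the poscounts form of size factor scaling. Below 1000 reads, only 58.6% to 66.9% of genes lay within 0.03 reads of whole counts, so raw counts were not recovered and no count model was run.

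limma 3.58.1 in R 4.3.3 (lmFit, eBayes with trend) was run on log2(value + 1) for the 23185 genes that reached 10 in 2 or more libraries, all 8 libraries in 1 fit. Fold changes are on that scale. Two-sided p-values were adjusted over all genes by the Benjamini-Hochberg method, with a threshold of 0.05. Floors of 3 reads cover counting error only. The procedure was also run on simulated counts, drawn independently and with no library set apart, so that run does not bear on the calls given here. Exon lengths and overlaps came from GENCODE M21, which 23752 of 24612 genes matched by symbol and position.

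The 10 genes, the other lists and the tests were chosen with earlier results of these data known. Named are the 10 genes, up to 3 genes with the smallest p of a list, a set of fixed regulators (1 is not reported here), and the 3 genes nearest in pattern. Alternatives were another pseudocount, no filter, 2 rescalings, library weights, fits of 2 groups, a replicate block and libraries left out.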

Additional observations from a re-analysis of the deposited data

How the results depend on the processing

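Over 16 alternatives, the called changes of the text kept their direction and lost the call in many settings. Of 15 called changes, 1 was lost with a pseudocount of 10, 1 with no filter and 0 with library weights. The same upper quartile lost 3, the same library sum 4, fits of the 2 groups compared 9 and the replicate block 14. With 1 treated library left out, between 4 (Bleomycin 2) and 12 (Bleomycin 3 or Bleomycin 4) were lost. That range leaves out the fits without PBS 2 or PBS 3, which keep 1 PBS library and lost more of the calls. The 4 members called in bleomycin skin over PBS became 2 in the fit of 2 groups and 0 to 3 with 1 library left out. For celastrol over PBS the 4 became 2, and 0 to 3. Leaving out the 3 libraries of lowest depth (Celastrol 2, Celastrol 3 and Bleomycin 3) left 0 members called in both, 0 of all genes in limma for bleomycin over PBS (1636 at an unadjusted p under 0.05) and 4 for celastrol over PBS. All genes called numbered 157 for bleomycin over PBS (711 with library weights, 16 to 229 with 1 library left out) and 317 for celastrol over PBS (191 higher and 126 lower, 139 and 138 with the same library sum, 38 to 418 with 1 library left out). For celastrol over bleomycin 0 to 1 genes were called with 1 library left out. The same library sum moved the median log2 change of all genes for celastrol over PBS to -0.17, where it had been -0.07. The cause of these changes was not tested.

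Libraries of different groups share the replicate numbers 2 and 3, and their deviations correlated at -0.01 to 0.20 over genes, highest for Bleomycin 2 and PBS 2. Not every pair was over 0.1 and no label ties a number to an animal or batch, so the numbers were not taken to pair the samples. With the number as a block, 0 members were called in bleomycin or celastrol skin over PBS (17 and 41 of all genes), and Bbc3 stood at -0.083 in celastrol skin. The loss under the block is not read as a weaker effect.

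Signs turned for small or low values. For celastrol over bleomycin, Pmaip1 stood at 0.059, Apaf1 at -0.14 and Trp53inp1 at -0.35 without the 3 libraries of lowest depth, Apaf1 at -0.029 and Trp53inp1 at -0.19 with library weights, and Trp53inp1 at -0.066 with the same library sum. Trp53 stood at -0.072 in celastrol skin over PBS without the 3 libraries of lowest depth. With 1 library left out, celastrol over bleomycin ranged from -0.39 to 0.069 for Pmaip1, -2.28 to 0.71 for Bbc3, -0.11 to 0.18 for Trp53inp1 and -0.31 to 0.12 for Eda2r. Bbc3 ranged from -0.84 to 3.31 in bleomycin and -1.47 to 2.68 in celastrol skin over PBS, and Trp53 from -0.059 to 0.23 in bleomycin and -0.007 to 0.28 in celastrol skin over PBS. Polk passed in bleomycin skin with library weights, at 1.22. Bax rests on 51 to 255 reads and Bbc3 on 0 to 51, and every comparison with PBS rests on 2 PBS libraries.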
